A study of Mus musculus with 19 samples.

Results

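The results concern 7 mouse genes of the signalling pathway that holds ovarian follicles dormant: Pik3ca, Pdpk1, Akt1, Tsc1, Tsc2, Foxo1 and Foxo3. A probe set (a group of short oligonucleotides on the array that report 1 transcript together) belonged to a gene when the platform annotation gave it that gene's symbol and no other. By this rule 23 probe sets reported the 7 genes, of 18193 genes with such a probe set and 45037 probe sets in all. Where a gene had several, its main probe set was that of highest mean signal over the ovary arrays, and the others are given beside it. The rule took the genes by name and used no measured value of theirs, although the list of genes was drawn up with earlier results of these data known. The main probe set of each gene was above the median signal of the series, 116.05, on all 18 ovary arrays.

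The study followed gene expression in the developing ovary of wild-type CD-1 mice, an outbred stock, from 1 stage to the next. Ovaries were taken from time-mated animals on gestation days 11, 12, 14, 16 and 18 (gd11 to gd18) and on postnatal day 2 (pnd2), with 3 arrays at each stage. RNA of the whole organ went through 2 rounds of amplification before hybridisation, and 1 further array held RNA of a pool of whole newborn animals, 4 males and 4 females, at pnd 0.5. No group carried an allele, a transgene or a treatment, and the groups were planned to differ in stage. The sample labels describe the gd11, gd12 and gd14 samples as pools of 3, whereas the text of the series describes every sample as the ovaries of a single animal. According to that text each sample had its own dam, except gd11 samples 18 and 19, which shared one. By their labels, gd11 samples 16 and 18 held the mesonephros (the embryonic kidney that lies against the gonad) as well as the gonad, and gd11 sample 19 the gonad. If the labels hold, pooling went with stage, and gd11 included tissue beyond the gonad. In comparisons such as gd11 with pnd2, neither can be told apart from stage. In whole organs, fewer cells of a type and less RNA per cell cannot be told apart.

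Primordial follicles, each an oocyte wrapped in flat pregranulosa cells, form around birth in the mouse and make up a dormant reserve. In oocytes, receptors such as KIT activate phosphoinositide 3-kinase (PI3K), whose lipid product brings AKT to the membrane, where PDK1 phosphorylates it. Active AKT phosphorylates FOXO3, which then leaves the nucleus, and it also inhibits the TSC1-TSC2 complex, which otherwise restrains the growth kinase complex mTORC1; mice that lose Foxo3, or Tsc1 or Tsc2 in oocytes, activate their primordial follicles early. These switches act on phosphorylation and on the place of proteins in the cell, which transcript levels do not measure.

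Signals are in arbitrary units on a linear scale that the authors had scaled to the same trimmed mean on every array. On each ovary array 47.85% to 54.17% of probe sets had a signal above 116.05. The gd16 arrays correlated least with the arrays of their own stage (mean r of 0.9531 to 0.957, against 0.9676 to 0.9779 elsewhere). The sample labelled gd16 sample 7 stood apart in Xist, the RNA that coats the inactive X chromosome in female cells: its 3 Xist probe sets read 44.79, 136.16 and 6.34, against at least 11306, 6369 and 918 on the other ovary arrays. Its 9 probe sets for the Y-linked genes Eif2s3y, Kdm5d and Uty read 2.96 to 64.42, against 0.34 to 84.42 on the other ovary arrays. On the Eif2s3y probe set with the highest reference signal it read 23.7, where the reference array, which holds males, read 803, so its Y-linked signal was not raised to that of the reference. The changes between neighbouring stages to or from gd16 that are named below are given without that array as well. Counts over lists of genes and of pairs of stages include it, except where stated. The gd11 sample 16 stood apart in neuronal markers, whose summed signal was 30032 there against 4086 and 4681 on the other gd11 arrays. The Gapdh 3'/5' ratio, which reads RNA quality, was 2.987 to 3.28 on the gd11 arrays and 5.068 to 5.408 on the pnd2 arrays, and its part in the results below was not tested.

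The promoters of the 3 genes whose rise from gd11 to pnd2 held in every setting tried (Foxo3, Foxo1 and Pdpk1) are shown to give the sequence around their starts. Those settings read the main probe set of a gene or the mean of its tested sets. The sequences are the 250 bases before the annotated start in RefSeq (build GRCm38.p6), written 5′ to 3′ on the strand of the gene, for Foxo3 chr10:42276696-42276945 on the minus strand, for Foxo1 chr3:52268087-52268336 on the plus strand and for Pdpk1 chr17:24141595-24141844 on the minus strand. Capitals mark matches, on either strand, to the 5-letter CCAAT box (CCAAT, or ATTGG on the other strand) and the 6-letter GC box (GGGCGG, or CCGCCC).
Foxo3: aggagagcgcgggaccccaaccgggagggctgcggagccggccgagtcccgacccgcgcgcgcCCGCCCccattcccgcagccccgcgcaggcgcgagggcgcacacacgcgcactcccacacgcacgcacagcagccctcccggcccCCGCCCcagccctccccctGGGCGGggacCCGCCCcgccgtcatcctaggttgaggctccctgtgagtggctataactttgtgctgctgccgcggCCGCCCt
Foxo1: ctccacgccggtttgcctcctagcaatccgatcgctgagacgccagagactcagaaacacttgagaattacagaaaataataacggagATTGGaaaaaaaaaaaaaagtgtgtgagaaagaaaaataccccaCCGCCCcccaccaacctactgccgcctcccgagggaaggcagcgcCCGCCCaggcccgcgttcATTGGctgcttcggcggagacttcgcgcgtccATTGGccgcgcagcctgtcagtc
Pdpk1: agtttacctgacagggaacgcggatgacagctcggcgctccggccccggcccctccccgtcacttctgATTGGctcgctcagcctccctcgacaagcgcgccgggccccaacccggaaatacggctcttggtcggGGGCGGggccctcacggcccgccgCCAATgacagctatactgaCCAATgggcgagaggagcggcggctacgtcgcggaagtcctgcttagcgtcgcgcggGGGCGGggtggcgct

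The Foxo3 window held 5 GC boxes, 31 CpG dinucleotides and 76.4% G or C. The Foxo1 window held 2 GC boxes, 3 CCAAT boxes, 20 CpG and 56% G or C, and the Pdpk1 window held 2 GC boxes, 3 CCAAT boxes, 31 CpG and 69.6% G or C. Over all 32851 windows of this length the medians were 6 CpG and 52.4% G or C, and 32.7% of the windows held a GC box and 33.8% a CCAAT box on either strand. Other motifs searched on both strands had no match in these 3 windows: the FOXO core GTAAACA (in 3.17% of all windows), the cyclic AMP response element TGACGTCA (1.55%), the E-box CACGTG (6.02%), the TATA box TATAAA (12.4%) and TAATTG, a motif of the oocyte factor NOBOX (7.17%). The motif of the factor NRF1 (4.98%) had 1 match, in the Foxo3 window, which is not in capitals. No match says only that these letters are not in the window. Among the windows of the 7 genes, the FOXO core had 1 match, in 1 of the 2 annotated windows of Akt1. Pdpk1 has 2 annotated windows in RefSeq, and both lie within the gene's annotated span, chr17:24073680-24155619. The window not shown, chr17:24150923-24151172 on the minus strand, held 46.4% G or C, 1 CpG and no match to any motif searched. Which of the windows is used in the ovary was not tested.

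Of the 7 genes, 5 changed over the 6 stages (Pik3ca, Pdpk1, Tsc2, Foxo1 and Foxo3) and 2 did not pass the test (Akt1 and Tsc1). The test was limma's moderated F test on log2(signal + 31.48), with p-values adjusted over all 26431 tested probe sets and a gene called at an adjusted p under 0.05. Change was the rule in these ovaries: 68.1% of the 12566 tested genes passed the same test, so 5 of 7 is near the background. The steps differed. From gd14 to gd16, 3 of the 7 genes rose (Foxo1, Foxo3 and Pik3ca) and none fell, where 21.2% of all genes were called, 11.4% as higher and 9.77% as lower. From gd12 to gd14 only Pdpk1 was called, a rise, where 19.6% of all genes were called and 11.6% rose. From gd18 to pnd2 only Pik3ca was called, a fall, where 15.4% were called and 6.9% fell. From gd11 to gd12 and from gd16 to gd18 limma called none of the 7, where 4.71% and 8.19% of all genes were called. At an unadjusted p under 0.05 there was 1 of the 7 in each step (Foxo1 and Tsc1 respectively). The share of all genes at that unadjusted threshold was not counted, so these counts are not to be read against 4.71% and 8.19%. From gd11 to pnd2, 4 of the 7 rose (Foxo1, Foxo3, Tsc2 and Pdpk1), where 46.9% of all genes were called, 26.3% as higher and 20.6% as lower. The arrays of the compared stages did not overlap in 2, 2, 3, 0 and 1 of the 7 genes over the 5 steps in turn and in 4 from gd11 to pnd2, beside 24.6%, 40.2%, 37.6%, 26.3%, 34.3% and 55.4% of all genes. Over the other pairs of stages, used below to order the levels, the share of genes called was 34.2% for gd14, 43.5% for gd16 and 40.5% for gd18 against gd11, 34.1% for gd16, 30.1% for gd18 and 40.2% for pnd2 against gd12, 15.5% for gd18 and 33% for pnd2 against gd14, and 33.2% for pnd2 against gd16. The median log2 change of the 7 genes from gd14 to gd16 was 0.43, beside 0.09 for all genes, and from gd11 to pnd2 it was 0.58 beside 0.04. With every array scaled to the same median, the median of all genes moved to -0.08 from gd14 to gd16 and to -0.10 from gd11 to pnd2. Without gd16 sample 7, Foxo3 and Pik3ca were still called from gd14 to gd16 and Foxo1 was not.

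**Figure D1:**
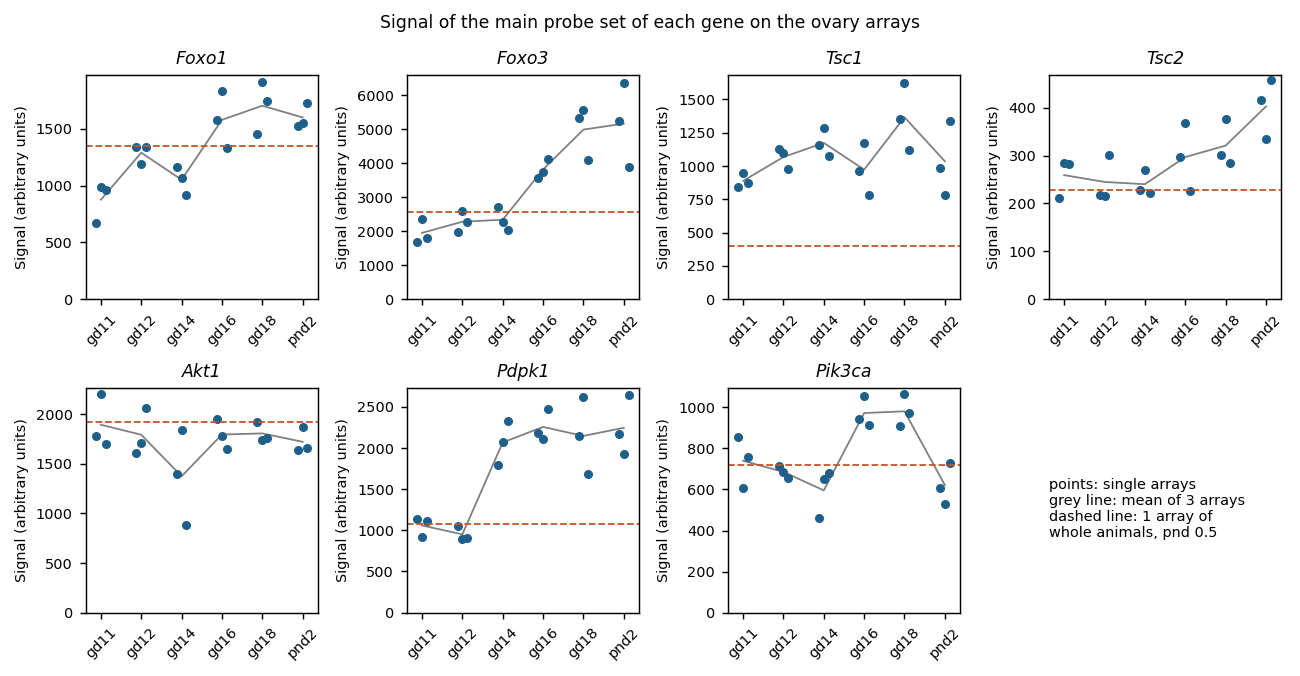
Signal (arbitrary units, linear axes from 0) of the main probe set of each of the 7 genes on the 18 ovary arrays, with points for single arrays, a grey line for the mean of the 3 arrays of a stage and a dashed line for the single array of whole animals. Foxo3 lies between 1679.5 and 2728 through gd14 and between 3579 and 6375 from gd16 on, Pdpk1 steps up between gd12 and gd14, and Pik3ca is high at gd16 and gd18 alone.

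**Figure D2:**
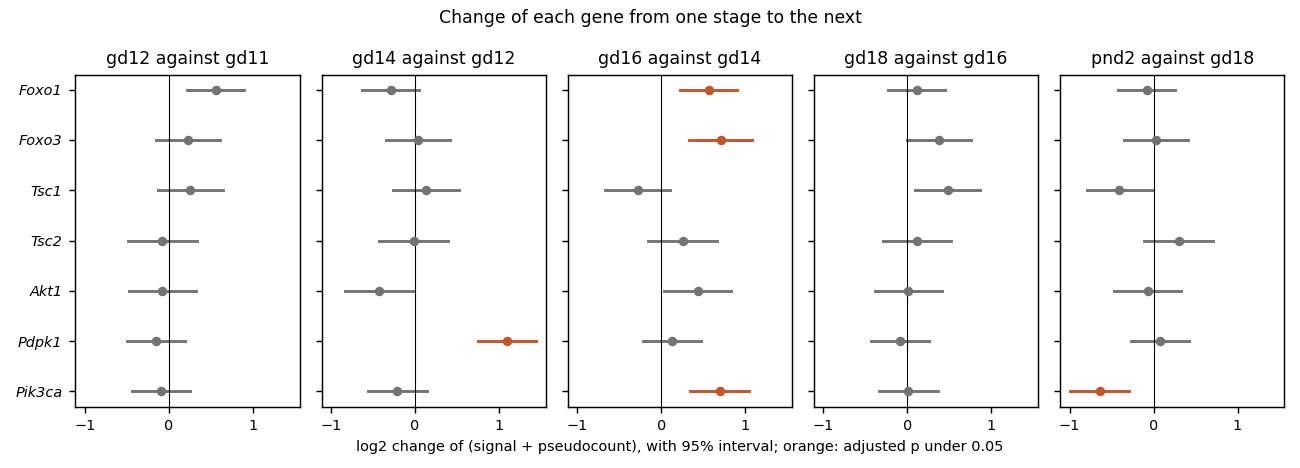
Log2 change of (signal + pseudocount) of each gene from one stage to the next, as limma's estimate with its 95% interval, with changes at an adjusted p under 0.05 in orange. The called changes are Pdpk1 from gd12 to gd14 (1.09), Foxo1, Foxo3 and Pik3ca from gd14 to gd16 (0.57, 0.71 and 0.70) and Pik3ca from gd18 to pnd2 (-0.64).

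Pik3ca (chr3:32397065-32466112, GRCm38.p6) encodes p110alpha, the catalytic subunit that makes the lipid signal. Its main probe set, 1460326_at, read 855, 608 and 756 on the gd11 arrays, 712, 687 and 658 at gd12, and 459, 649 and 678 at gd14. The signals were 945, 1057 and 914 at gd16 and 907, 1065 and 971 at gd18, and then 607, 529.7 and 728 at pnd2. All 6 arrays of gd16 and gd18 thus lay above all 12 arrays of the other stages. The log2 change from gd14 to gd16 was 0.70 ± 0.17 (SE, n = 3 and 3; ratio of means 1.63, adjusted p = 0.00743), and 0.71 without gd16 sample 7 (adjusted p = 0.0193). From gd18 to pnd2 the signal fell by 0.64 ± 0.17 on the log2 scale (ratio of means 0.634, adjusted p = 0.0156), a call that was lost when gd18 sample 5, pnd2 sample 1 or pnd2 sample 2 was left out (adjusted p = 0.0642, 0.0574 and 0.0749). Over the whole span from gd11 to pnd2 the log2 change was -0.24, with a 95% interval from -0.59 to 0.11 (adjusted p = 0.269). In the order of mean levels, gd18 and gd16 stood first, followed by gd11, gd12, pnd2 and gd14, and no neighbouring pair in that order was called. Of the 15 pairs of stages 6 were called, gd16 and gd18 each against gd12, gd14 and pnd2. Without gd16 sample 7, 5 pairs were called.

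The other Pik3ca probe sets did not share this course. The set 1423144_at, with mean signals of 564 at gd14, 802 at gd16, 616 at gd18 and 375.5 at pnd2, fell from gd18 to pnd2 by 0.67 on the log2 scale (adjusted p = 0.0104) and from gd11 to pnd2 by 0.44 (adjusted p = 0.0349), and its change from gd14 to gd16 was 0.47 (adjusted p = 0.0523; 0.33 and 0.209 without gd16 sample 7). The other 3 tested sets had their lowest level at gd16, where the main set was high. The set 1429434_at read 375, 479 and 415 at gd16 and 719.99, 814 and 818 at gd18, a rise of 0.85 ± 0.16 (adjusted p = 0.0032). The sets 1429435_x_at and 1453134_at rose over the same step by 1.01 (adjusted p = 0.00773) and 1.15 (adjusted p = 0.0273), a step at which 4.58% of all tested probe sets rose. Without gd16 sample 7 these rises were 0.77 for 1429434_at (adjusted p = 0.0191), 0.74 for 1429435_x_at (0.044) and 0.88 for 1453134_at, which was then not called (0.133). Correlations with the main set over the 18 arrays ran from -0.0202 (1429435_x_at) to 0.526 (1423144_at), a description of arrays that share the same RNA. The log2 signal of 1460326_at minus that of 1429434_at was 1.08 to 1.26 at gd16 (1.08 and 1.09 without sample 7) and -0.11 to 0.56 on all 15 arrays of the other stages, a pair that was chosen after its values were seen. With the mean of all its tested probe sets in place of the main one, the change of Pik3ca from gd14 to gd16 was 0.0085 (adjusted p = 0.974). The sixth set, 1440054_at, stayed below the filter on every array.

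**Figure D3:**
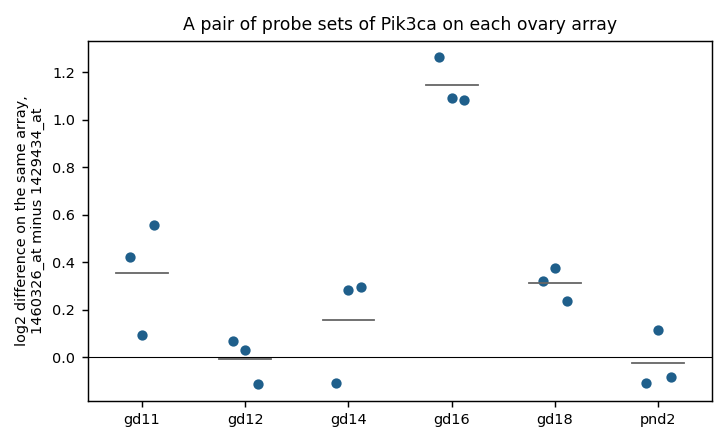
Difference in log2(signal + pseudocount) between the Pik3ca probe sets 1460326_at and 1429434_at on the same array, by stage, with points for single arrays and bars for the mean of 3. The 3 gd16 arrays lie at 1.08 to 1.26, above all 15 arrays of the other stages, which lie at -0.11 to 0.56.

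Pdpk1 (chr17:24073680-24155619) encodes PDK1, the kinase that phosphorylates the activation loop of AKT. Its main probe set, 1416501_at, read 1140.3, 922 and 1116 at gd11 and 1053, 889 and 911 at gd12, against 1792, 2079 and 2332 at gd14. Later stages stayed at the higher level: 2186, 2115 and 2469.6 at gd16, 2143, 2618 and 1681 at gd18, and 2169.8, 1924 and 2644 at pnd2. The 6 early arrays and the 12 later ones did not overlap. From gd12 to gd14 the log2 change was 1.09 ± 0.16 (SE, n = 3 and 3; ratio of means 2.17, adjusted p = 0.000147), and from gd11 to pnd2 it was 1.06 ± 0.16 (adjusted p = 4.61e-05). Both calls held in all 29 alternatives, with log2 changes of 0.90 to 1.19 and 0.91 to 1.16. In the order of levels, gd16, pnd2, gd18 and gd14 were not told apart as neighbours, and the single called gap lay between gd14 and gd11 (adjusted p = 0.000274). The second set, 1415729_at, also rose from gd12 to gd14, by 0.70 ± 0.20 (adjusted p = 0.0186), and from gd11 to pnd2, by 0.96 (adjusted p = 0.000639). Between these its mean went from 1568 at gd14 to 1117 at gd16 and 1566 at gd18, log2 changes of -0.49 and 0.49 that did not pass (adjusted p = 0.0881 and 0.139), and -0.35 and 0.34 without gd16 sample 7 (0.289 and 0.384).

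Akt1 (chr12:112653821-112674884) encodes AKT1, 1 of the kinases that PDK1 activates. Its main probe set, 1416657_at, read 1784, 2201 and 1699 at gd11, 1606, 1709 and 2067 at gd12, and 1397, 1840.01 and 888 at gd14. It read 1954, 1780.05 and 1654 at gd16, 1919, 1739.7 and 1764 at gd18, and 1639, 1871 and 1658 at pnd2. Each stage overlapped with the next, and the 3 gd14 arrays were spread widest (1375 ± 476, SD). The F test did not pass (adjusted p = 0.19), and none of the 15 pairs of stages was called. The log2 changes from gd12 to gd14 and from gd14 to gd16 were -0.43 (95% interval -0.83 to -0.03, adjusted p = 0.14) and 0.43 (0.04 to 0.83, adjusted p = 0.12), the latter 0.37 without gd16 sample 7 (adjusted p = 0.264). Without gd14 sample 11 these changes were -0.66 and 0.67, and both passed (adjusted p = 0.0214 and 0.0211), as did the F test (adjusted p = 0.0215). The probe sets 1425711_a_at and 1440950_at had lower signals (means of 230.5 and 194 over the ovary arrays) and did not pass the F test either, with adjusted p = 0.813 and 0.0966.

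Tsc1 (chr2:28640993-28691172) encodes hamartin, the partner that stabilises TSC2. Its main probe set, 1455252_at, read 846, 947 and 874 at gd11, 1126, 1099 and 979.6 at gd12, and 1162, 1286 and 1074 at gd14. The later signals were 964, 1174 and 782 at gd16, 1353, 1626 and 1119.97 at gd18, and 988, 784.5 and 1335 at pnd2, so that neighbouring stages overlapped from gd12 on. The F test did not pass (adjusted p = 0.0887), and among the 15 pairs only gd18 against gd11 was called, with a log2 change of 0.59 ± 0.19 (adjusted p = 0.0184). That pair was no longer called with median scaling, without gd11 sample 16 or without gd18 sample 5. The F test passed with array quality weights (adjusted p = 0.028), without pnd2 sample 3 (0.0291) and without gd16 sample 8 (0.0497). The other tested sets of Tsc1 both passed the F test (adjusted p = 0.00201 and 0.00187). The set 1439989_at read 124, 174 and 137 at gd11 and 256, 259 and 237 at pnd2, a rise of 0.69 ± 0.17 (adjusted p = 0.00351). Its mean went from 276 at gd16 to 183 at gd18, the stage at which the main set was highest. That log2 change of -0.52 did not pass (adjusted p = 0.0743), and it was -0.42 without gd16 sample 7 (0.221). The set 1422043_at rose from 86, 102 and 56 at gd12 to 226, 188 and 206 at gd14, by 1.10 ± 0.29 (adjusted p = 0.0127). Its gd12 arrays lay below the filter of 116.05, and it was above the filter on only 9 of the 18 arrays. The correlations of 1439989_at and 1422043_at with the main set over the 18 arrays were 0.0484 and 0.344, as a description. With the mean of the 3 sets the F test of Tsc1 passed (adjusted p = 0.000429), so the call of Tsc1 depends on the probe set.

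Tsc2 (chr17:24595816-24632676) encodes tuberin, which switches off the GTPase that activates mTORC1. It had 1 probe set, 1452105_a_at, with the lowest signals of the 7 genes. The arrays read 212, 284 and 282 at gd11, 218, 215 and 302 at gd12, 229, 270.5 and 222 at gd14, 297, 367 and 226 at gd16, 302, 377 and 284 at gd18, and 416, 334 and 457 at pnd2. The pnd2 arrays lay above all arrays of gd11, gd12 and gd14, and these were the 3 pairs of stages called. From gd11 to pnd2 Tsc2 rose by 0.58 ± 0.20 (SE, n = 3 and 3; ratio of means 1.55, adjusted p = 0.0232), and the F test passed (adjusted p = 0.0369). Both calls were close to the threshold. The rise was not called after quantile normalization (0.48, adjusted p = 0.0536) or median scaling (0.44, adjusted p = 0.0827), nor without gd11 sample 16, pnd2 sample 1 or pnd2 sample 3 (adjusted p = 0.106, 0.0657 and 0.0905). The F test of Tsc2 was not passed after quantile normalization (adjusted p = 0.0575) or median scaling (0.0688), without a filter (0.0688), or without any 1 of 6 arrays (gd12 samples 13 and 14, gd14 samples 10 and 12, and pnd2 samples 1 and 3; adjusted p up to 0.131).

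Foxo1 (chr3:52268337-52350109) encodes a forkhead transcription factor that AKT excludes from the nucleus, and in the mouse ovary it is known chiefly from granulosa cells. Its main probe set, 1416983_s_at, read 675, 992 and 962 at gd11, 1338, 1191 and 1341 at gd12, and 1166, 1069 and 922 at gd14. It read 1573, 1835 and 1329 at gd16, 1451, 1916 and 1744 at gd18, and 1524, 1547 and 1729 at pnd2. All 9 arrays from gd16 on lay above all 6 arrays of gd11 and gd14, while the gd12 arrays lay above both early stages and overlapped gd16. Foxo1 rose from gd14 to gd16 by 0.57 ± 0.16 (means of 1052 and 1579, adjusted p = 0.0221) and from gd11 to pnd2 by 0.86 ± 0.16 (ratio of means 1.83, adjusted p = 0.000323). The first call was lost with median scaling (0.38, adjusted p = 0.148) and with the mean of its probe sets (0.38, adjusted p = 0.0649), and also without gd16 sample 7 (0.56, adjusted p = 0.053), gd16 sample 8 (0.45, adjusted p = 0.0947), gd14 sample 11 (0.58, adjusted p = 0.0508) or gd14 sample 12 (0.48, adjusted p = 0.0995). The second held in all 29 alternatives. From gd11 to gd12 all 3 arrays were higher, with a log2 change of 0.56 ± 0.16 that did not pass (adjusted p = 0.0606), and without gd11 sample 16 it was 0.39 (adjusted p = 0.252). From gd12 to gd14 all 3 arrays were lower (log2 change -0.29, adjusted p = 0.252). Among the stages in order of level (gd18, pnd2, gd16, gd12, gd14, gd11) no neighbouring pair was called, and 6 of the 15 pairs were, each of gd16, gd18 and pnd2 against gd11 and gd14. Without gd16 sample 7, 5 pairs were called. The set 1416981_at followed the main one (r = 0.8 over the 18 arrays; F test adjusted p = 0.0191), whereas 1416982_at did not pass the F test (adjusted p = 0.205). Neither set was called from gd11 to pnd2, with limma log2 changes of 0.53 for 1416981_at (adjusted p = 0.0593) and 0.33 for 1416982_at (0.131). From gd14 to gd16 the change of 1416981_at was 0.59 (adjusted p = 0.0634), and 0.78 without gd16 sample 7 (0.0287). The means of 1416982_at at these stages were 616 and 610.

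Foxo3 (chr10:42181845-42276695) encodes the forkhead factor whose nuclear form keeps primordial oocytes dormant in mice, and it had the highest mean signal of the 7 main probe sets, although signals of different probe sets are not levels on a common scale. The set 1434831_a_at read 1679.5, 2375 and 1803 at gd11, 1976, 2608 and 2261 at gd12, and 2728, 2268 and 2024 at gd14. From gd16 on the signals were 3579, 3745 and 4129 at gd16, 5319, 5565 and 4086 at gd18, and 5241, 6375 and 3881 at pnd2. All 9 arrays of the last 3 stages lay above all 9 arrays of the first 3, whose stages overlapped one another. From gd14 to gd16 Foxo3 rose by 0.71 ± 0.18 (SE, n = 3 and 3; ratio of means 1.63, adjusted p = 0.0112), and without gd16 sample 7 by 0.75 (adjusted p = 0.0225). The call was lost with median scaling (0.52, adjusted p = 0.0704) and without gd14 sample 12 (0.61, adjusted p = 0.0602). The change from gd16 to gd18 was 0.37, with a 95% interval from -0.01 to 0.75 (adjusted p = 0.229), and 0.33 without gd16 sample 7 (0.396). From gd11 to pnd2 the rise was 1.38 ± 0.18 (ratio of means 2.65, adjusted p = 6.99e-06), and it lay between 1.21 and 1.57 in all 29 alternatives. In order of level pnd2, gd18 and gd16 stood above gd14, gd12 and gd11, and the gap between gd16 and gd14 was the only called one among neighbours. Each of the 9 pairs across that gap was called, and no pair on either side of it. The second probe set, 1434832_at, had a correlation of 0.979 with the first over the 18 arrays. It rose from gd11 to pnd2 by 1.05 ± 0.19 (adjusted p = 0.000185), and its change from gd14 to gd16 was 0.45 (adjusted p = 0.102), and 0.46 without gd16 sample 7 (0.165). From gd16 to gd18 its change was of similar size, 0.44 (adjusted p = 0.166), and 0.43 without gd16 sample 7 (0.273). The arrays did not overlap at either step, so in this set the rise was not confined to the step from gd14 to gd16. The remaining set, 1450236_at, was below the filter on every array.

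**Figure D4:**
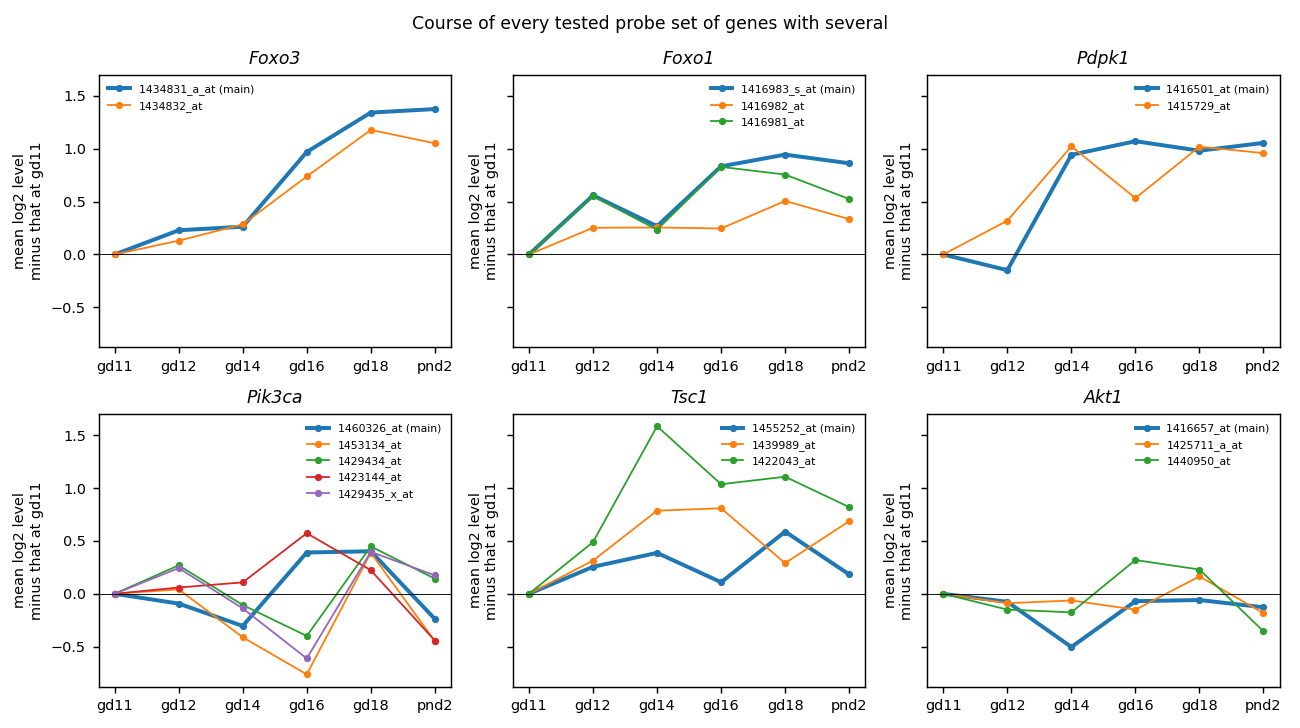
Mean log2(signal + pseudocount) at each stage minus that at gd11 for every tested probe set of the 6 genes with more than 1, with the main set drawn thick. The lines of Foxo3 run close together (r = 0.979 over the 18 arrays), while those of Pik3ca part at gd16, where the main set and 1423144_at stand up and the other 3 down.

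Over all 7 genes, 14 of the 19 tested probe sets passed the F test, against 62.8% of all tested probe sets. In Foxo3, Pdpk1 and Pik3ca every tested set passed, in Foxo1 and Tsc1 2 of 3, in Tsc2 its only set, and in Akt1 none of 3. The other 4 sets stayed below the filter at every stage and were not tested.

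Cell makeup changed over the same stages. The summed signal of 12 germ cell and oocyte markers ran from 439 to 1058 on the gd11 arrays and from 2465 to 9517 at gd12. The gd14 arrays summed to between 33507 and 39943, those of gd16 to between 14560 (sample 7) and 22198. By gd18 the range was 30648 to 50917, and the pnd2 arrays reached 56927 to 71809. All 12 markers rose from gd11 to pnd2, where 26.3% of all genes rose and 20.6% fell, and 10 of the 12 were below the filter on every gd11 array. Between gd14 and gd16, where Foxo1, Foxo3 and Pik3ca rose, the sums of the 2 stages did not overlap and the gd16 sums were the lower ones, with 5 of the 12 markers called higher and 3 lower. At this step 4 of 9 tested macrophage and leukocyte markers rose and none fell (sums of 2032 to 3750 at gd14, 3986 to 5536 at gd16). Of 12 stromal markers 3 rose and none fell (38796 to 61840, and 69396 to 85770). Both sums rose beside the 3 genes without overlap, and so did the sum of the granulosa markers (29760 to 33822, and 39506 to 44581). Of 12 granulosa markers 4 rose and none fell, and of 8 tested red blood cell markers 4 rose and 2 fell, where 11.4% of all genes rose and 9.77% fell. The summed signal of the red blood cell markers was nevertheless lower at gd16, without overlap (33737 to 37969 at gd14, 6871 to 10942 at gd16). The sum of 12 granulosa lineage markers was between 8364 and 9755 at gd11, between 29760 and 33822 at gd14, between 39506 and 44581 at gd16, and between 25226 and 34814 at pnd2. Between gd12 and gd14, where Pdpk1 rose, 6 of the 12 germ cell markers and 5 of the 12 granulosa markers rose and none of either list fell, and 5 of 11 tested endothelial markers fell and none rose, where 11.6% of all genes rose and 8.03% fell. From gd11 to pnd2, where 20.6% of all genes fell, 7 of 8 tested markers of red blood cells fell (sums of 50716 to 59085 at gd11, 241 to 425 at pnd2). Of 7 neuronal markers 6 fell and 1 rose (sums of 4086 to 30032, and 964 to 1945), and of 7 tested mesonephros markers 4 fell (sums of 2706 to 3857, and 2500.0 to 3888). The part of these shifts in the changes of the 7 genes was not tested.

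Beside the single array of whole newborn animals, Tsc1 was higher on all 18 ovary arrays (reference signal 403, lowest ovary array 782). Pdpk1 was above the reference signal of 1074 on 14 of 18 ovary arrays, among them all 12 from gd14 on. Foxo3 was above the reference of 2556 on 11 of 18 arrays, among them all 9 from gd16 on. Akt1 was above its reference of 1923 on 3 of 18 arrays. Pik3ca (717), Tsc2 (229) and Foxo1 (1352) had reference signals inside the range of the ovary arrays. All these values are of main probe sets, and other sets of Akt1, Pdpk1 and Pik3ca differed. The Akt1 set 1440950_at was above its reference of 175 on every array of gd11, gd16 and gd18 (lowest 179.45, 209.89 and 179.25). The Pdpk1 set 1415729_at read at most 1301 at gd16, below its reference of 1307. The Pik3ca sets 1423144_at (reference 275, lowest ovary array 351) and 1429434_at (362 and 375) were above the reference on all 18 ovary arrays. For 1429435_x_at and 1453134_at the reference lay inside the ovary range. The reference had no replicate, and no test was made.

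The gene whose log2 signal was most like that of Foxo3 over the 18 arrays was Akt2, another AKT kinase (r = 0.957, among 12071 genes), followed by Cert1, a ceramide transporter (0.945), and Amigo2, an adhesion protein (0.944). The nearest to Pdpk1 were Trip12, a ubiquitin ligase (0.947), Vti1b, a vesicle fusion protein (0.94), and Stradb (0.936), and the nearest to Foxo1 were N4bp2l1 (0.901), Gaa, the lysosomal alpha-glucosidase (0.899), and Lrrc75a (0.895). Pik3ca was most like Ccnl1, cyclin L1 (0.871), Ankrd13c (0.867) and Napg (0.832). For Tsc2 these were Furin, a protein-cleaving enzyme (0.882), Cibar1 (0.873) and Kpna6, a nuclear importin (0.866). Akt1 and Tsc1, whose main probe sets did not pass the F test, had as nearest genes Dnm1, dynamin 1 (0.849), and Osbpl11 (0.837), respectively. Among the 7 genes themselves the highest correlation was that of Foxo1 with Foxo3 (0.793) and the lowest that of Akt1 with Pdpk1 (-0.318). These correlations describe 18 arrays that share 6 stages and carry no test.

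The other genes of the pathway were read from lists by function, with 1 probe set a gene. The counts of these lists are to be read against all genes tested, of which 68.1% changed over the stages, 11.4% rose and 9.77% fell from gd14 to gd16, and 26.3% rose and 20.6% fell from gd11 to pnd2. Of 12 tested PI3K subunits and PI3K-binding proteins, 8 changed over the 6 stages, against 68.1% of all genes. From gd14 to gd16 2 of them rose and 1 fell, and from gd11 to pnd2 5 rose and none fell (median log2 change 0.32, beside 0.04 for all genes). Pik3r3, the p55gamma regulatory subunit, rose from 591 ± 74.1 (SD, n = 3) at gd12 to 2024 ± 122 at gd14, by 1.73 ± 0.16 (SE) on the log2 scale (adjusted p = 5.73e-07), the same step at which Pdpk1 rose. It then fell from gd18 to pnd2 by 0.64 (adjusted p = 0.0139), a call that was lost without gd18 sample 5 (0.079) or pnd2 sample 1 (0.0616). Pik3ip1, an inhibitor of the catalytic subunit, rose from 764 ± 148 at gd14 to 1693 ± 269.6 at gd16, by 1.12 ± 0.20 (adjusted p = 0.000852; 1.05 and 0.00567 without gd16 sample 7), and fell to 958 ± 143 at gd18 (by 0.80, adjusted p = 0.0189). That fall was not called without gd16 sample 7, gd16 sample 9 or gd18 sample 4 (adjusted p = 0.0758, 0.066 and 0.0964), or with the mean of the probe sets of Pik3ip1 (0.115). Pik3r1, the p85alpha regulatory subunit, rose from 2984 ± 250.2 at gd11 to 4994 ± 1019 at pnd2 (0.72, adjusted p = 0.0034).

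Of 11 tested phosphatases that act on phosphoinositides or AKT, 7 changed over the stages, near the 68.1% of all genes. Between gd11 and pnd2 4 of them rose and 1 fell, beside 26.3% and 20.6% of all genes. Phlpp1, a phosphatase that removes phosphate from AKT, rose from 593 ± 56.95 at gd12 to 989 ± 89.5 at gd14 (0.71 ± 0.16, adjusted p = 0.00542). Inpp5d, the 5-phosphatase SHIP1, rose from 161 ± 38.3 at gd18 to 284 ± 31.7 at pnd2 (0.72 ± 0.17, adjusted p = 0.00756). The list of AKT kinases, mTORC2 subunits and SGK kinases also held Gsk3a, Gsk3b and Tcl1. Of its 11 tested genes 7 changed, again near the share of all genes, and from gd11 to pnd2 2 rose and 3 fell (median -0.13). Akt2 rose from 826 ± 2.89 at gd14 to 1136 ± 42 at gd16 (0.44 ± 0.13, adjusted p = 0.0249), a call that was lost with median scaling (0.26, adjusted p = 0.222) and without gd16 sample 7 (adjusted p = 0.0689) or any 1 of gd14 samples 10, 11 and 12 (0.0575, 0.0623 and 0.0658). From gd11 to pnd2 Akt2 rose by 0.73 (adjusted p = 0.000204), the span over which the change of Akt1 did not pass. The difference between the changes of Akt1 and Akt2 was not tested. Tcl1, a cofactor of AKT that is abundant in oocytes, rose from 287 ± 64.6 at gd16 to 1330.2 ± 466 at gd18 and 4206 ± 711 at pnd2, by 2.05 ± 0.26 (adjusted p = 0.000152; 2.00 and 0.00148 without gd16 sample 7) and 1.69 ± 0.26 (adjusted p = 0.000252). Sgk1, a kinase related to AKT that PDK1 also activates, fell from 2247 ± 251 at gd12 to 886 ± 182 at gd14 (-1.33 ± 0.20, adjusted p = 0.00017).

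Of the 21 tested partners of the TSC complex, subunits and regulators of mTORC1 and S6 kinases, 11 changed over the stages, a smaller share than the 68.1% of all genes, with no test of that difference. From gd14 to gd16 3 rose and 3 fell, beside 11.4% and 9.77% of all genes, and from gd11 to pnd2 6 rose and 2 fell, beside 26.3% and 20.6%. Mtor, the kinase itself, rose from 1549 ± 208 at gd12 to 2288 ± 181 at gd14 (0.56 ± 0.14, adjusted p = 0.0105). That call was lost with the mean of the probe sets of Mtor (0.41, adjusted p = 0.126) and without gd12 sample 13 (0.07) or gd14 sample 10 (0.0515). Deptor, an inhibitor of mTOR complexes, rose from 393 ± 51.2 at gd18 to 1093 ± 364 at pnd2 (1.35 ± 0.36, adjusted p = 0.0175), a call that was lost when any of 4 of the 6 arrays compared was left out (adjusted p up to 0.0954). Rragd, a GTPase that recruits mTORC1 to lysosomes, fell from 2007 ± 449 at gd11 to 597 ± 157 at gd12 (-1.70 ± 0.24, adjusted p = 0.000486). At this step the neuronal marker sums overlapped (4086 to 30032 at gd11, 995 to 7809 at gd12). None of the 7 tested neuronal markers was called, where 4.71% of all genes were. Rps6, the ribosomal protein that S6 kinase phosphorylates, did not pass the F test (adjusted p = 0.239), with a mean of 2358 ± 1018 at gd11 and 1450.0 ± 761 at pnd2.

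Upstream of PI3K, 13 of 20 tested receptors, ligands and adaptors changed, near the 68.1% of all genes. From gd14 to gd16 4 rose and none fell, beside 11.4% and 9.77% of all genes, and from gd11 to pnd2 3 rose and 4 fell, beside 26.3% and 20.6%. Kit, the receptor on oocytes, read 820 ± 198 at gd11, 548 ± 145 at gd14 and 695 ± 111 at gd16, then rose to 2989 ± 505 at gd18 (2.05 ± 0.20, adjusted p = 1.51e-05; 2.08 and 0.000172 without gd16 sample 7) and stood at 4466 ± 392 at pnd2. Kitl, its ligand from granulosa cells, took another course: it rose from 5160 ± 516 at gd11 to 10097 ± 3570 at gd12 (0.91, adjusted p = 0.00864), stood at 13258 ± 1204 at gd14, and fell from 9743 ± 1931 at gd18 to 5719 ± 744 at pnd2 (-0.76, adjusted p = 0.011). The rise of Kitl was not called without gd12 sample 14 (adjusted p = 0.0602) or with only the compared arrays in the fit (0.0719), and its fall was not called without gd18 sample 6 (0.0714) or pnd2 sample 2 (0.0561). Igf2, a growth factor of fetal tissues, fell from 8026 ± 1418 at gd18 to 2549 ± 426 at pnd2 (-1.64 ± 0.18, adjusted p = 7.01e-06).

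Of 34 tested FOXO paralogs, targets and cofactors, 29 changed over the stages, beside 68.1% of all genes. From gd11 to pnd2 9 of them rose and 15 fell, beside 26.3% and 20.6% of all genes, with a median log2 change of -0.31 beside 0.04 for all genes. The list mixes targets with cofactors and was not split by the direction in which FOXO factors act. Its counts and median therefore do not read FOXO activity. Foxo4, another FOXO factor, did not pass the F test (378 ± 72.6 at gd11 and 274 ± 19.0 at pnd2). Cdkn1b, the cell cycle inhibitor p27 that FOXO factors induce, rose from 472 ± 78.4 at gd12 to 885 ± 91.5 at gd14 (0.87 ± 0.15, adjusted p = 0.000421) and stood at 1343 ± 44.5 at pnd2, a rise of 1.05 over gd11 (adjusted p = 1.4e-05). Sirt1, a deacetylase that acts on FOXO proteins, rose from 1904 ± 139 at gd12 to 4259 ± 513 at gd14 (1.14 ± 0.14, adjusted p = 1.15e-05) and fell back to 1996 ± 58 at gd16 (-1.08 ± 0.14, adjusted p = 5.23e-05; -1.07 and 0.000392 without gd16 sample 7). Sod2, the mitochondrial superoxide dismutase and a FOXO3 target, followed the same 2 steps, from 2962 ± 399 at gd12 to 5409.7 ± 702 at gd14 (0.86, adjusted p = 0.000403) and to 2603 ± 225 at gd16 (-1.04 ± 0.14, adjusted p = 0.000105; -1.07 and 0.000565 without gd16 sample 7), the step at which Foxo3 rose. It then rose to 4169.6 ± 683 at gd18 (0.66, adjusted p = 0.0083; 0.69 and 0.0231 without gd16 sample 7), a call that was lost with the mean of the probe sets of Sod2 (0.167) and without gd18 sample 5 (0.0512). Sod2 rose from gd11 to pnd2, as Foxo3 did, by 1.13, and this held in all 29 alternatives (0.60 to 1.23).

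Of 17 tested other genes whose loss disturbs the pool of primordial follicles in mice, 14 changed, beside 68.1% of all genes, and from gd11 to pnd2 10 rose and 2 fell, beside 26.3% and 20.6% (median log2 change 1.25 beside 0.04). Figla, an oocyte transcription factor, rose from 25.8 ± 22.2 at gd12, below the filter, to 334 ± 65.6 at gd14 (adjusted p = 1.26e-05). The size of that change depends on the pseudocount, since the gd12 mean lies under it, with log2 changes of 1.67 to 3.61 over the alternatives. Gdf9, a growth factor of oocytes, rose from 266 ± 59.3 at gd18 to 3376 ± 1404 at pnd2 (3.45 ± 0.27, adjusted p = 1.7e-07). Figla, Gdf9, Sohlh1, Lhx8 and Nobox are also on the list of oocyte markers, and Foxl2 is on that of granulosa markers. The counts and the median of this list therefore partly repeat those markers. For these genes more RNA of the cell type in the organ and more transcript per cell cannot be told apart.

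**Figure D5:**
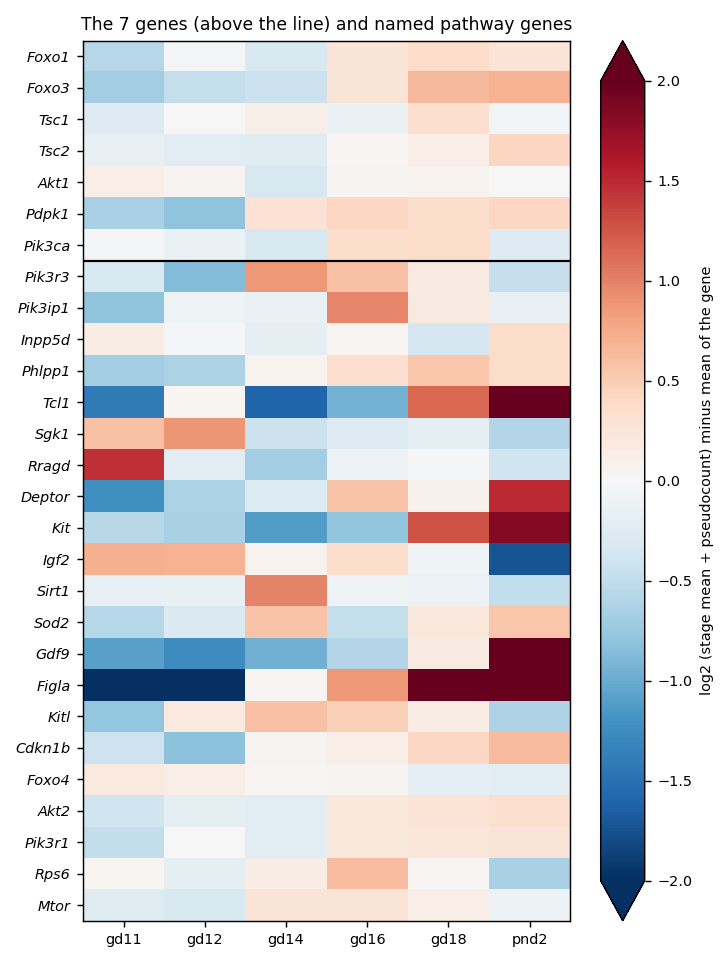
Mean level of the 7 genes (above the line) and of the named pathway genes at the 6 stages, as log2(stage mean + pseudocount) minus the mean of that gene over the stages, on a scale from -2 to 2 at which darker values are cut off. Foxo3 turns from blue to red between gd14 and gd16 (means of 2340.1 and 3818), Pdpk1 between gd12 and gd14 (951 and 2068), and Kit and Tcl1 between gd16 and gd18.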

How the data were processed

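The deposited values are array intensities, which the authors made with GCOS, Affymetrix's own software, per the submitters' processing notes (version and settings not given in the sources used here). Every array had the same mean after trimming 2% of its values, so the intensities were used as deposited, as log2(signal + 31.48), the 25th percentile of the ovary values; such log2 values understate changes of low signals. Tested were probe sets with a stage mean above 116.05, the median, at 1 stage or more (26431 of 45037 probe sets, with 64 controls left out). The comparisons of stages used limma (3.58.1; R 4.3.3): 1 term per stage over the 18 ovary arrays, a mean-variance trend, 12 residual degrees of freedom, two-sided tests and Benjamini-Hochberg adjustment over all tested probe sets. The number of arrays limits the precision. The procedure was tested on simulated data. Log2 changes under 0.2 that were not called are given as levels only.

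The genes, lists and alternatives were chosen with earlier results of these data known. Named pathway genes are the 2 called genes per list with the largest change between neighbouring stages and no overlap of arrays, and a fixed set given whatever its values, of which 3 genes are not analysed here. Sequences are from RefSeq (GRCm38.p6), and all 7 genes matched. The p-values measure only the spread between these samples. No array was left out of the main comparisons, and the reference array entered no test.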

Additional observations from a re-analysis of the deposited data

How the results depend on the processing

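The 14 called results of the 7 genes (changes between stages and F tests) were recomputed under other settings. Of these, 8 stayed called in every setting and none reversed; the losses of the other 6 stand beside their values above. Of 16 changes and F tests that were not called, 6 passed in some setting, among them Foxo1 from gd11 to gd12 with a filter at the 75th percentile or with array quality weights (adjusted p = 0.0435 and 0.0487). The number of the 7 genes called was 1 in place of 0 from gd11 to gd12 with that filter and with those weights, 2 in place of 1 from gd12 to gd14 with a mean over the tested probe sets of each gene, 1 in place of 3 from gd14 to gd16 with median scaling and with that mean, 1 in place of 0 from gd16 to gd18 with that mean, and 2 in place of 1 from gd18 to pnd2 with the weights; the cause was not tested. Leaving out each array in turn gave 1 to 2 called genes from gd12 to gd14, 1 to 3 from gd14 to gd16 (1 without gd14 sample 12), 0 to 2 from gd18 to pnd2, 3 to 4 from gd11 to pnd2 and 4 to 6 in the F test. A stage left with 2 arrays has fewer samples, and its calls are harder to reach. Of 44 called changes of named pathway genes, 32 stayed called in every setting and 12 did not in some. The values of the other probe sets without gd16 sample 7 were computed after seeing the data. No paired analysis was possible because no sample number occurs at more than 1 stage. Signal over background limits what can be read of the 4 untested probe sets and of Tsc2, the lowest main probe set.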
